A study of Saccharomyces cerevisiae with 18 samples.

Results

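The comparison described here is that of a far1 deletion strain with its wild type, both growing exponentially in glucose. It rests on the 3 arrays titled as deletion in glucose and the 3 titled as wild type in glucose, 6 of the 18 arrays of a series on FAR1 dosage in budding yeast (Saccharomyces cerevisiae). Per the labels, the wild type was W303-1A, a laboratory strain listed as MATa. Its listed alleles are ade2-1 for adenine, his3-11 for histidine, leu2-3 joined with leu2-112 for leucine, trp1-1 for tryptophan and ura3-1 for uracil, with can1-100 in the arginine permease. The deletion strain is listed with the same alleles and far1Δ, written far1::his3 in the design text. Both groups thus share a set of auxotrophic alleles on the labels, and the deletion strain differs from the wild type in its marker gene as well as in FAR1. Each group had 3 independent cultures in synthetic complete medium. Whether the deletion strain was 1 clone, and at what age or density within the stated range each culture was taken, is not stated. The series asked what a changed dose of FAR1 does to the transcript pattern in each carbon source. Every gene measured by a probe set that matched it alone was eligible, and the genes of the strain markers, HIS3 and TRP1, are set apart from the other changes.

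Far1 is known as an inhibitor of the cyclin-dependent kinase Cdc28 bound to its G1 cyclins. It holds cells before Start, the point of commitment to division, when they sense mating pheromone, and it also carries the polarity factor Cdc24 to the site of pheromone reception. In cells that grow without pheromone its known role is smaller, and it has been described as one of the brakes that set the cell size at Start.

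The values are deposited signal intensities from the array maker's software. Changes are differences of mean log2 values after quantile normalization, deletion minus wild type, with their standard error (SE) from a limma model and a Benjamini-Hochberg adjusted p, and a gene is called where that p is under 0.05. Deposited intensities ran higher in the deletion arrays, with array medians of 11.0 to 16 against 8.5 to 11.3 in the wild type. On the deposited scale the median change of all genes was 0.40, against -0.02 after normalization, so a rise in the intensities quoted below overstates the normalized change by about that shift, and a fall understates it. The log2 ratio of 3 prime to 5 prime actin signal was 0.54 to 0.62 in the deletion arrays and 0.65 to 0.98 in the wild type arrays, and its part in the results was not tested. The 5 prime to 3 prime ratio of the BioDn spike-in was low in the wild type arrays, 0.169 to 0.203, and in deletion array 1 at 0.174, but 0.476 in deletion array 2 and 0.369 in deletion array 3. The mating type label was read against 4 defining genes of alpha cells and 7 of a cells. The summed intensity of the alpha genes was 1287.3 to 2600 in the wild type and 2603.5 to 3212.6 in the deletion strain, and that of the a genes 12.7 to 22.9 and 17.3 to 23.3. Of the a genes, 3 had a median below the 20th percentile of the arrays, and of the alpha genes 0. The markers thus go against the label MATa in both strains alike, and 0 of the 4 alpha genes and 0 of the 4 a genes tested were called between the strains. The summed signal of 7 genes of sporulating diploids was 14.6 to 18.9 in the wild type and 17.4 to 25.3 in the deletion strain.

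The deleted gene was measured first. FAR1 (YJL157C, chromosome X) gave intensities of 19.7, 27.3 and 22.8 in wild type and 4.9, 7.0 and 4.1 in deletion arrays. All 3 deletion arrays lay below all 3 wild type arrays, and the normalized change was -2.48 ± 0.21 (SE; adjusted p 9.76e-05), a fall of 5.58-fold. In the fit of all 18 arrays, which holds arrays whose FAR1 signal goes against their labels, the change was -2.60 with an adjusted p of 0.642. The signal that was left in the deletion arrays was above 0, and whether the probe set lies inside the deleted stretch is not given in the sources used here. None of the 2 genes tested on either side of FAR1 was called. HSP150 and CIS3, which code for secreted cell wall proteins, had changes of 0.54 (adjusted p 0.113) and 0.34 (adjusted p 0.242), SSY5, a protease of amino acid sensing, 0.26, and FBP26, a fructose-2,6-bisphosphatase, 0.18.

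HIS3 (YOR202W, chromosome XV), which codes for an enzyme of histidine synthesis and names the deletion cassette, rose more than any other of the genes tested. Its intensities were 10.2, 7.3 and 9.8 in wild type and 245.3, 340.0 and 194.5 in deletion arrays. The groups were far apart, with a change of 4.14 ± 0.18 (adjusted p 1.05e-07), or 17.6-fold. A second HIS3 probe set went from 4.6, 3.3 and 2.4 to 74.1, 116.7 and 75.4, a change of 4.15.

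TRP1 (YDR007W, chromosome IV), which codes for an enzyme of tryptophan synthesis, rose too, although the labels give both strains the same trp1-1 allele. Its intensities were 10.4, 6.9 and 17.3 in wild type and 186.6, 239.4 and 200.9 in deletion arrays. There was no overlap, and the change was 3.65 ± 0.26 (adjusted p 1.91e-05), or 12.6-fold. The labels and the design text name no TRP1 cassette for this strain.

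Of the genes beside these markers, DED1 (YOR204W), the RNA helicase of translation initiation that lies next to HIS3, was the only one called among those tested. Its intensities were 21.3, 26.8 and 35.4 in wild type and 91.9, 144.0 and 122.9 in deletion arrays. The lowest deletion array was above the highest wild type array, and the change was 1.55 ± 0.14 (adjusted p 9.76e-05). The other neighbours of HIS3 had changes of 0.23 (MRM1, a mitochondrial rRNA methyltransferase), -0.19 (BFR1, an RNA-binding protein) and -0.21 (GEP3, a mitochondrial ribosome assembly factor). Beside TRP1, SOK1 had a change of 0.39, MAF1, the repressor of RNA polymerase III, 0.20 and GAL3, the galactose sensor, -0.38.

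**Figure D1:**
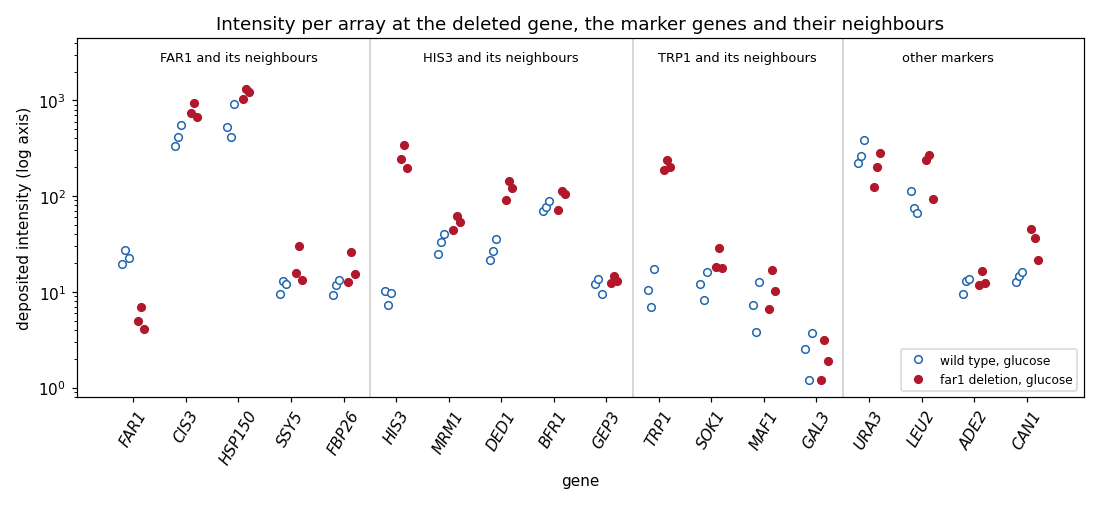
Deposited intensity on a log axis for each array (open circles, 3 wild type arrays in glucose; filled circles, 3 far1 deletion arrays in glucose) at FAR1, HIS3, TRP1, their neighbours and the other markers of the genotype label. FAR1 sits at 4.1 to 7.0 in the deletion arrays, HIS3 at 194.5 to 340.0 and TRP1 at 186.6 to 239.4, and among the neighbours DED1 stands apart between the groups.

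The other markers of the genotype label did not pass the test. URA3, the orotidine phosphate decarboxylase of uracil synthesis, had intensities of 224.4, 260.8 and 382.3 in wild type and 125.8, 199.2 and 284.0 in deletion arrays, a change of -1.06 ± 0.25 (adjusted p 0.0594). Its deposited intensities overlapped, while its normalized values did not. LEU2, of leucine synthesis, was 113.4, 75.3 and 66.0 against 240.7, 269.9 and 92.5, with a change of 0.60 ± 0.34 (adjusted p 0.422) and deletion array 3 below the other two. CAN1, the arginine permease, had a change of 0.69 (adjusted p 0.204) and ADE2, of purine synthesis, -0.24 (adjusted p 0.519).

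In the pathways that the marker genes feed, only the markers themselves were called. With 1.54% of all genes tested called, nothing about lists this short is read from that. Of 7 histidine biosynthesis genes HIS3 alone was called, 6 had positive changes, and the median was 0.34 (0.22 to 0.59 leaving out 1 array at a time) against -0.02 over all genes tested. HIS5, the aminotransferase of the pathway, was 51.9, 26.9 and 39.2 in wild type and 105.6, 188.5 and 60.6 in deletion arrays (0.93 ± 0.29, adjusted p 0.152), and HIS4, which catalyses several steps, was 350.8, 143.1 and 283.5 against 672.5, 724.9 and 383.0 (0.74 ± 0.27, adjusted p 0.22). In both, deletion arrays 1 and 2 were the high ones and the normalized groups overlapped. The histidine list did not separate the arrays by its median deviation from the wild type mean. Wild type array 1 stood at 0.37, and deletion arrays 2 and 3 at 0.36 and 0.25. In the tryptophan list wild type array 1 stood at 0.16 and deletion array 3 at 0.02. HIS7, HIS1 and HIS2 had changes of 0.34, 0.19 and 0.10, and HIS6 of -0.25. Of 5 tryptophan biosynthesis genes TRP1 alone was called, and the other four had changes of 0.31 (TRP5, the tryptophan synthase), 0.21 (TRP2), 0.12 (TRP4) and 0.08 (TRP3). Of 8 genes of the shared aromatic pathway and of phenylalanine and tyrosine synthesis 0 were called by limma and 7 were positive, with a median of 0.29. ARO3, a first-step synthase, had a change of 0.64 (adjusted p 0.0718) and ARO1, the pentafunctional enzyme of the pathway, 0.61 (adjusted p 0.0795).

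Across all genes, 84 of 5470 were called, which is 1.54%, with 68 higher in the deletion strain (1.24%) and 16 lower (0.293%). Of these, 36 rises and 7 falls were at least 2-fold. At an unadjusted p under 0.05 there were 871 genes. Over all 5470 genes tested, 2585 changes were positive and 2885 negative, and the counts of positive changes in the lists are to be read against these. Without HIS3, TRP1 and FAR1, 66 rises and 15 falls were left, and their rises had a median change of 1.03 and a largest of 2.41. The normalized arrays of the groups did not overlap for all 84 called genes, where 18.6% of all genes tested had no overlap. On the deposited intensities 68 of the 68 rises and 9 of the 16 falls had no overlap. The share over all genes was not counted on that scale, where the median change of 0.40 favours rises over falls, so nothing is read from these counts. The balance of rises and falls depends on the scale, because 98.6% of 425 calls on the deposited scale were rises against 81% after normalization, and FAR1, ARO9 and ARO10 were the 3 of the 16 falls that were called there. All 68 rises and 16 falls kept their sign on the deposited scale.

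**Figure D2:**
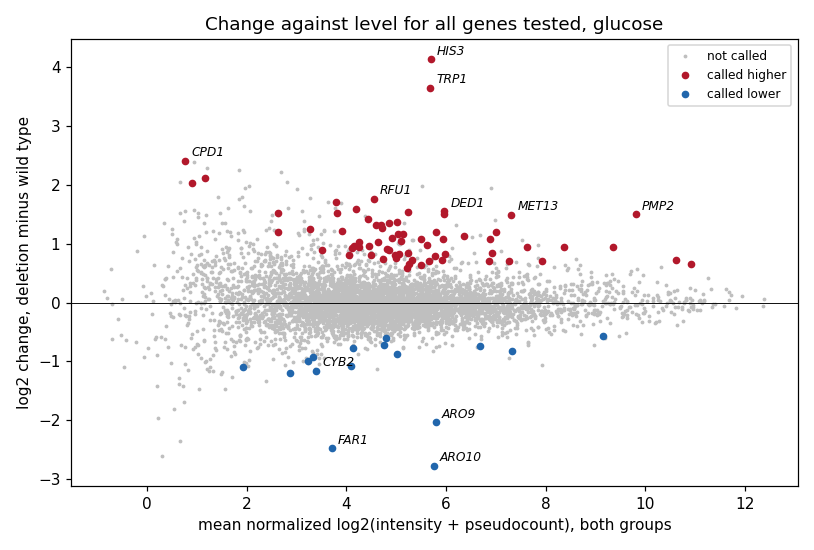
Normalized log2 change in glucose, deletion minus wild type, against the mean normalized log2 intensity of both groups, 1 point per gene (grey, not called; red, 68 called higher; blue, 16 called lower). HIS3 and TRP1 lie apart at 4.14 and 3.65, and FAR1, ARO9 and ARO10 are the lowest of the called genes.

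How well the calls held was uneven. In 17 alternatives of the fit, 13 genes were called every time, namely HIS3, TRP1, ARO9, IZH3, MET13, NAT5, NFS1, PMP2, QDR3, RFU1, SKN1, TIF6 and TRS20. NFS1 and QDR3 lie outside the rule for named genes and were chosen after their values were seen. Leaving out each array in turn, 25 of the 84 genes were called in all 6 refits, 20 rises and 5 falls. All 84 kept their direction, which the lack of overlap between their normalized groups makes nearly certain in advance. The count of calls fell to 36 without wild type array 2, to 30 without deletion array 1 and to 45 without deletion array 2, and rose to 178 without wild type array 3. With the spike-in ratio as a blocking factor, the change rests on deletion array 1 against the wild type. The same lack of overlap thus fixed the sign of all 84 in advance.

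Among the called genes, the largest falls beside that of FAR1 were those of ARO10 and ARO9, which act in the breakdown of aromatic amino acids. ARO10, the decarboxylase of the Ehrlich pathway that turns amino acids into fusel alcohols, was 133.2, 208.5 and 50 in wild type and 11.1, 30.1 and 26.8 in deletion arrays. Every deletion array was below the lowest wild type array, and the change was -2.77 ± 0.45 (adjusted p 0.00963). ARO9, the aromatic aminotransferase that acts before it, was 85.9, 130.5 and 61.2 against 15.9, 41.7 and 32.8, again without overlap, with a change of -2.04 ± 0.31 (adjusted p 0.00677). Deletion array 1 was the lowest for both genes, and without it ARO10 had an adjusted p of 0.0519 while ARO9 was still called. Of 10 Ehrlich pathway genes these were the 2 called, both lower, and the median of the list was -0.07.

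Among the largest rises were 2 genes of methionine and sulfur metabolism. MET13, a methylenetetrahydrofolate reductase that supplies the methyl group of methionine, was 69.2, 50 and 116.1 in wild type and 275.5, 386.4 and 278.2 in deletion arrays, a change of 1.49 ± 0.18 (adjusted p 0.0019). STR3, the cystathionine beta-lyase, was 11.7, 11.9 and 24.9 against 41.0, 61.4 and 62.7, a change of 1.37 ± 0.20 (adjusted p 0.0056). Neither gene had overlapping arrays. They were the 2 called of 34 genes of the list, of which 27 had positive changes, with a median of 0.41. The list did not separate the arrays: its median deviation from the wild type mean was -0.15, -0.46 and 0.73 for wild type and 0.14, 0.23 and 0.75 for deletion arrays, so that wild type array 3 lay with deletion array 3. Leaving out 1 array at a time, the median change of the list ran from 0.04 to 0.67.

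The lists of other amino acids had positive medians with few calls, where 1.54% of all genes tested were called. As in the histidine and tryptophan lists, the arrays of the strains were mixed in the arginine, lysine and branched-chain lists. Wild type array 1 stood at 0.42, 0.32 and 0.39 in the arginine, lysine and branched-chain lists. Deletion array 3 stood at 0.08, -0.01 and -0.17 there. Leaving out 1 array at a time moved the median change from 0.17 to 0.52 for arginine, 0.06 to 0.44 for lysine and 0.24 to 0.67 for branched-chain genes. ILV5, the acetohydroxyacid reductoisomerase of isoleucine and valine synthesis, was 477.7, 287.6 and 388.2 in wild type and 969.3, 1538.5 and 770.3 in deletion arrays, a change of 0.95 ± 0.18 (adjusted p 0.0243). It was the 1 call of 11 branched-chain genes (median 0.40). Of 8 arginine genes 0 were called and all 8 were positive (median 0.33), and of 9 lysine genes 0 were called (median 0.20), with LYS9, the saccharopine reductase, at 0.85 (adjusted p 0.12). Of 18 genes of threonine, homoserine, serine and glutamate synthesis 0 were called (median 0.21). Of 20 purine and one-carbon genes 0 were called (median 0.14), with ADE17, of the last steps of purine synthesis, at 27.6, 9.7 and 34.1 against 54.8, 76.4 and 54.6 (1.06 ± 0.33, adjusted p 0.151). Of 18 amino acid permeases 0 were called (median 0.20), with AGP1, a broad-range permease, at 0.65 (adjusted p 0.114) and BAP2, for branched-chain amino acids, at 0.63 (adjusted p 0.0741). Of 11 thiamine and pyridoxine genes 0 were called. SNZ1, of pyridoxine synthesis, was 184.8, 30 and 19.7 in wild type and 268.3, 412.8 and 181.6 in deletion arrays, so wild type array 1 lay with the deletion arrays and the change of 1.94 had an SE of 0.62 (adjusted p 0.156).

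Single genes of nitrogen use and of the vacuole were also among the rises. DAL5, the allantoate permease, was 12.5, 8.6 and 13.8 in wild type and 37.1, 63.1 and 26.6 in deletion arrays, a change of 1.31 ± 0.22 (adjusted p 0.0103). A second DAL5 probe set had a change of 1.33 and another, near the floor, -1.28, and neither was called. DAL5 was the 1 call of 18 genes of nitrogen regulation (median 0.25), where MEP1, an ammonium permease, had a change of 0.79 (adjusted p 0.0888). NIT1, a nitrilase, was 9.5, 9.8 and 19.5 against 34.8, 51.1 and 41.9, a change of 1.32 ± 0.18 (adjusted p 0.00405), and CPS1, the vacuolar carboxypeptidase, 15.2, 10.0 and 12.8 against 39.7, 58.5 and 33.1, a change of 1.28 ± 0.21 (adjusted p 0.0103). In both the groups were apart. NPR2, a subunit of the complex that restrains TORC1 when nitrogen is short, was 3.1, 4.0 and 1.4 against 9.4, 10.2 and 10.7, a change of 1.52 ± 0.32 (adjusted p 0.0368). Its wild type values were near the floor, and NPR2 was called in 8 of the 16 alternatives of the fit in which it was tested. ATG41, an autophagy gene, was 38.2, 17 and 33.4 against 114.3, 140.3 and 97.3, a change of 1.5 ± 0.25 (adjusted p 0.0108). PRB1, the vacuolar protease B, which was chosen after its values were seen, went from 26.0, 26.5 and 45.8 to 85.2, 97.9 and 107.3, a change of 1.07 ± 0.17 (adjusted p 0.00867).

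Other large rises came from several parts of the cell. PMP2, a small membrane protein that regulates the plasma membrane proton pump, was 289.7, 372.7 and 710.3 in wild type and 1768.5, 2187.1 and 1484.2 in deletion arrays, a change of 1.51 ± 0.22 (adjusted p 0.00452). Its second probe set had a change of 1.44, and the deletion arrays were above the wild type arrays in both. RFU1, an inhibitor of the ubiquitin chain protease Doa4, was 6.4, 8.7 and 15.2 against 47.5, 55.1 and 35.1, a change of 1.76 ± 0.23 (adjusted p 0.00233). HCM1, a forkhead transcription factor of S phase, was 6.6, 9.1 and 7.7 against 29.3, 34.1 and 36.5, a change of 1.60 ± 0.19 (adjusted p 0.00188). All 3 of these genes were clear of overlap, and HCM1 lost its call only in the fit of all 18 arrays. NAT5, a subunit of the N-terminal acetyltransferase NatA, was 13.3, 12.8 and 26.2 against 56.9, 94.2 and 56.7 (1.54 ± 0.20, adjusted p 0.00249). TRS20, a subunit of the TRAPP complexes of vesicle transport, was 4.8, 5.7 and 8.6 against 19.1, 32.8 and 23.3 (1.53 ± 0.17, adjusted p 0.00133). For both genes all 3 deletion arrays lay above the highest wild type array.

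IZH3, a membrane protein of zinc homeostasis, was 7.1, 10.6 and 12.6 in wild type and 28.7, 40.9 and 40.9 in deletion arrays (1.42 ± 0.18, adjusted p 0.00232). SKN1, of beta-glucan synthesis in the cell wall, was 10.5, 12.7 and 18.1 against 46.2, 59.5 and 40.8 (1.35 ± 0.16, adjusted p 0.00188). Wild type array 3 was the highest of its group in both, and still below the deletion arrays. ZWF1, the glucose-6-phosphate dehydrogenase, was 53.4, 47.6 and 110.4 against 191.5, 273.4 and 215.7 (1.19 ± 0.18, adjusted p 0.00557). SRY1, a dehydratase of hydroxyaspartate, had a change of 1.20, HTC1 of 1.22 and SUP19, a serine tRNA gene, of 1.25. Among the genes chosen after their values were seen, NFS1, the cysteine desulfurase of iron-sulfur cluster and tRNA thiolation, was 33.9, 39.5 and 54.3 against 118.8, 167.1 and 129.4 (1.13 ± 0.15, adjusted p 0.00232). QDR3, a multidrug transporter, was 22.8, 19.2 and 29.1 against 69.4, 79.7 and 60.2 (1.09 ± 0.14, adjusted p 0.00254).

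The 3 largest called rises after the marker genes came from genes at the floor of the arrays. CPD1, a cyclic nucleotide phosphodiesterase, was 0.4, 0.2 and 0.3 in wild type and 3.1, 4.8 and 2.9 in deletion arrays, a change of 2.41 ± 0.48 (adjusted p 0.0282). SPO21, a component of the meiotic spindle pole body, went from 1.0, 0.4 and 0.4 to 5.8, 3.7 and 3.3 (2.13 ± 0.44), and NDE2, an external mitochondrial NADH dehydrogenase, from 0.1, 1.1 and 0.4 to 5.1, 4.2 and 1.7 (2.03 ± 0.42). Most of their wild type intensities are at or about the pseudocount of 0.4. With a pseudocount of 4.1 the changes were 0.78 for CPD1 and 0.82 for SPO21, both still called, and 0.70 for NDE2 (adjusted p 0.0687). CPD1 and SPO21 were called in 9 and NDE2 in 10 of the 16 alternatives in which they were tested. SPO21 was the 1 call of 15 sporulation genes tested, whose median was -0.17.

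The other falls were smaller. CYB2, the lactate cytochrome c oxidoreductase, was 8.5, 10.9 and 17.5 in wild type and 7.0, 6.5 and 6.3 in deletion arrays, a change of -1.16 ± 0.18 (adjusted p 0.0079). HMO1, a high mobility group protein at ribosomal DNA and ribosomal protein genes, was 145.6, 157.3 and 217.1 against 133.3, 140.8 and 132.6, a change of -0.81 ± 0.13 (adjusted p 0.00867). For both, the deletion arrays varied little and lay below the lowest wild type array, and neither was called on the deposited scale (HMO1 adjusted p 0.413, CYB2 adjusted p 0.0665). COA2, an assembly factor of cytochrome oxidase, had a change of -0.92 ± 0.15 (adjusted p 0.00963), HSP30, a membrane protein that restrains the proton pump, -1.09 and MRPS17, a mitochondrial ribosomal protein, -0.71. CDC37, the kinase-specific partner of Hsp90, shows what the scaling does: it was 105.6, 89.3 and 127.5 against 62.6, 145.4 and 69.0, with deletion array 2 above all wild type arrays before normalization, and its change was -0.75 ± 0.17 (adjusted p 0.0481). USO1, a vesicle tethering factor, was called at -1 on 1 of its probe sets, and its dimmer probe sets, with changes from -2.33 to 0.80, were not called.

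**Figure D3:**
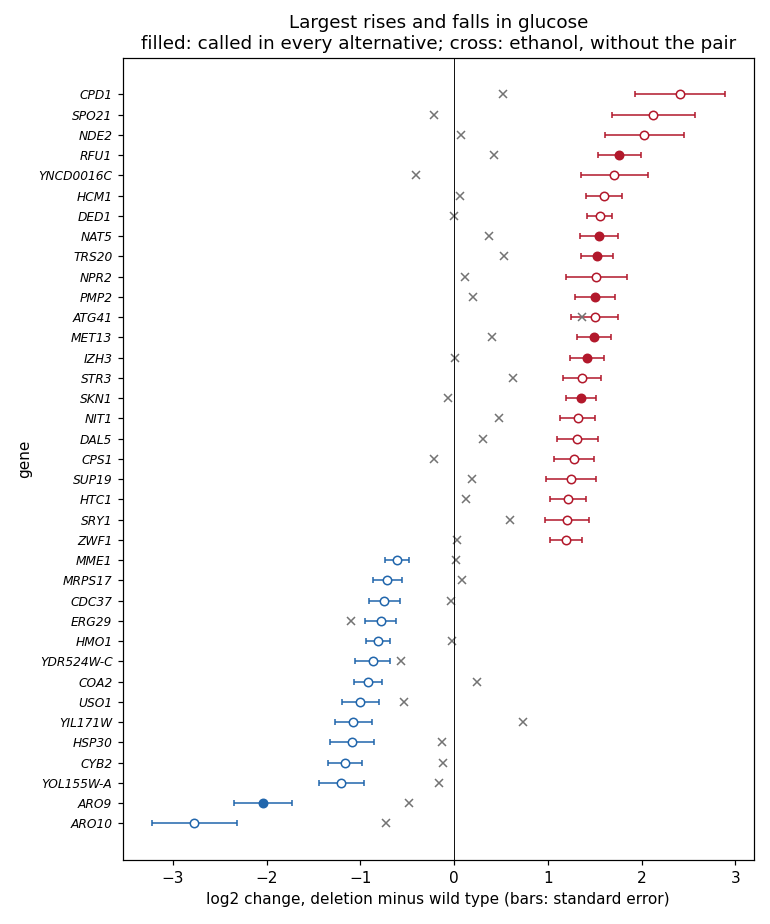
Normalized log2 change in glucose with its SE for 23 rises and 14 falls, leaving out HIS3, TRP1 and FAR1 (filled circles, called in all 17 alternatives; open circles, not in all; grey crosses, the change in ethanol without the pair of arrays that go against their FAR1 label). The glucose changes run from -2.77 for ARO10 to 2.41 for CPD1, and most crosses lie nearer to 0 than the circles, while that of ERG29 lies farther out.

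The regulators of Start, where Far1 acts, gave 0 calls of 20 by limma, with 9 positive changes and a median of -0.11. As 1.54% of all genes tested were called, nothing about Start is read from the 0 calls. SWI4, the DNA-binding subunit of the factor SBF, was 1.9, 2.0 and 3.4 in wild type and 5.0, 7.2 and 5.6 in deletion arrays, a change of 0.99 ± 0.28 (adjusted p 0.117). The G1 cyclins CLN1, CLN2 and CLN3 had changes of -0.45, 0.30 and 0.27, with adjusted p of 0.259, 0.288 and 0.45. The S phase cyclins CLB5 and CLB6 had changes of 0.09 and -0.74 (adjusted p 0.811 and 0.217), CDC28 of -0.09, the inhibitor SIC1 of -0.28, the repressor WHI5 of 0.36, MBP1, the DNA-binding subunit of the factor MBF, of -0.56 and BCK2, an activator of G1 transcription, of -0.58.

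Of 39 G1/S targets of SBF and MBF 0 were called and 7 had positive changes, with a median of -0.13, where 2585 of all 5470 genes were positive. On the deposited scale that median was 0.26, against 0.40 over all genes, so on both scales it lay below the median of all genes. The lowest p of the list belonged to SVS1, a cell wall protein, at 115.6, 133.2 and 200.4 against 130.9, 174.5 and 113.4 (-0.58 ± 0.13, adjusted p 0.0504), and to PDS5, a cohesion factor, at 20.6, 15.6 and 21.2 against 12.3, 19.8 and 10.1 (-0.88 ± 0.20, adjusted p 0.0557). Their deposited intensities overlapped between the strains. Of 22 genes of the mitotic CLB2 cluster 0 were called (median -0.01), and of 21 genes of the M/G1 transition and of daughter cells 0 (median 0.17). Beside the share of 1.54% called over all genes tested, nothing is read from the 0 calls of these lists. NDD1 and SWI5, mitotic transcription factors, had changes of 0.63 and 0.56 (adjusted p 0.113 and 0.152).

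Of 32 genes of the pheromone pathway in which Far1 works 0 were called, 12 were positive and the median was -0.11. As 1.54% of all genes tested were called, nothing is read from 0 calls here or in the polarity list below. STE12, the transcription factor of the pathway, was 15.8, 20 and 20.1 in wild type and 16.7, 20.6 and 14.8 in deletion arrays, a change of -0.53 ± 0.17 (adjusted p 0.158). The kinase gene FUS3 had a change of -0.09 and GPA1, the G protein subunit, of -0.25. Of 13 genes of the polarity module that binds Far1 0 were called (median -0.07), with BUD2, a GTPase activator of bud site selection, at 0.52 (adjusted p 0.22). The labels' protocols mention no pheromone treatment.

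Genes of growth and translation gave 0 to 2 calls a list, where 1.54% of all genes tested were called, and nothing about the lists is read from counts this small. Of 81 cytosolic ribosomal protein genes 2 were called, both higher, and the median was 0.03. RPL17A was 745.8, 1126.7 and 1616.7 in wild type and 2464.3, 2758.2 and 2139.6 in deletion arrays (0.72 ± 0.14, adjusted p 0.0282), but its second probe set, of a kind that can match related sequences, had a change of -0.16. RPS0B was 1118.1, 1304.4 and 2113.1 against 2756.8, 3141.5 and 2687.8 (0.66 ± 0.13, adjusted p 0.0243). Both genes have a near-identical copy elsewhere in the genome, so their values are uncertain. Of 118 ribosome biogenesis genes 1 was called, TIF6, a factor of the large subunit, at 48.2, 58.2 and 87.9 against 191.0, 221.2 and 180.7 (1.08 ± 0.13, adjusted p 0.00188), and 32 of the list were positive, with a median of -0.13. Of 35 translation factors TIF6 and DED1 were the 2 called (median -0.01). Of 27 growth regulators HMO1 alone was called (median 0.07), with TOR1, a kinase of growth control, at 0.70 (adjusted p 0.0803). Of 39 genes of RNA polymerase I and III 0 were called (median -0.04). Of 74 mitochondrial ribosomal protein genes MRPS17 was the 1 called, lower, 8 had positive changes, and the median was -0.22. On the deposited scale the median of that list was 0.24, against 0.40 over all genes.

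Carbon metabolism and stress genes gave few calls a list, where 1.54% of all genes tested were called. Nothing about the lists is read from such counts. Of 24 genes of glycolysis and fermentation 0 were called (median -0.02), of 17 for hexose transport 0 (median -0.03), of 26 for gluconeogenesis, the glyoxylate cycle and ethanol use 0 (median -0.12) and of 20 tricarboxylic acid cycle genes 0 (median -0.03). The enzyme gene PFK2, of the glycolytic phosphofructokinase, had a change of 0.43 (adjusted p 0.0909). Of 16 genes of lactate, NADH and glycerol oxidation NDE2, at the floor and not called with the pseudocount of 4.1, was called higher and CYB2 lower, and of 61 respiratory chain genes, ATP synthase included, COX9, a cytochrome oxidase subunit, was called higher at 0.84 and COA2 lower (median -0.04). COX9 lies beside IDP1, the mitochondrial isocitrate dehydrogenase, which was also called higher, at 0.94. Of 31 stress genes of the factors Msn2 and Msn4 0 were called (median 0.01). HSP12, a small stress protein, was 33.2, 18.4 and 32.9 against 11.3, 18.9 and 21.2, a change of -1.12 ± 0.29 (adjusted p 0.0762). Of 27 heat shock protein and chaperone genes HSP30, near the floor and not called with the pseudocount of 4.1, was the 1 called (median -0.08). Of 35 proteasome genes 0 were called (median -0.09) and of 33 cell wall genes 0 (median 0.06). Of 20 iron uptake genes 0 were called, with FET3, the ferroxidase, at 85.6, 95.6 and 126.6 against 282.3, 390.2 and 267.0 (1.06 ± 0.29, adjusted p 0.093). Of 24 ergosterol genes ERG12, the mevalonate kinase, was called higher at 1.04, 4 of the list were positive and the median was -0.14. The probe sets of ERG12 disagreed, with changes of 1.36 (adjusted p 0.0037), 0.41 and 0.30 (adjusted p 0.558) on the others, and the call was lost with the mean of the probe sets. ERG11, the lanosterol demethylase, had a change of -0.56 (adjusted p 0.0741).

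Uracil genes had the lowest list median, -0.35 (-0.43 to -0.23 leaving out 1 array at a time), with 2 positive changes of 12 tested and 1 call. The call was a rise of FUR1, the uracil phosphoribosyltransferase of salvage, at 121.5, 154.8 and 192.8 in wild type and 379.6, 446.0 and 289.1 in deletion arrays (0.71 ± 0.14, adjusted p 0.0249). Among genes of the synthesis pathway, URA2, its first enzyme, was 546.5, 478.3 and 515.3 against 270.1, 563.5 and 593.0 (-0.72 ± 0.22, adjusted p 0.151), and URA1, the dihydroorotate dehydrogenase, 544.2, 553.4 and 653.6 against 324.2, 576.0 and 864.6 (-0.61 ± 0.27, adjusted p 0.302). In URA1, URA2 and URA3 alike deletion array 1 was the lowest of its group, and in URA1 and URA2, which were chosen after their values were seen, the groups overlapped. By the list median of deviations from the wild type mean, deletion arrays 1 and 2 stood at -0.43 and -0.44. Deletion array 3 stood at -0.099, next to wild type array 1 at -0.095. On the deposited scale the list median was 0.11, against 0.40 over all genes.

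**Figure D4:**
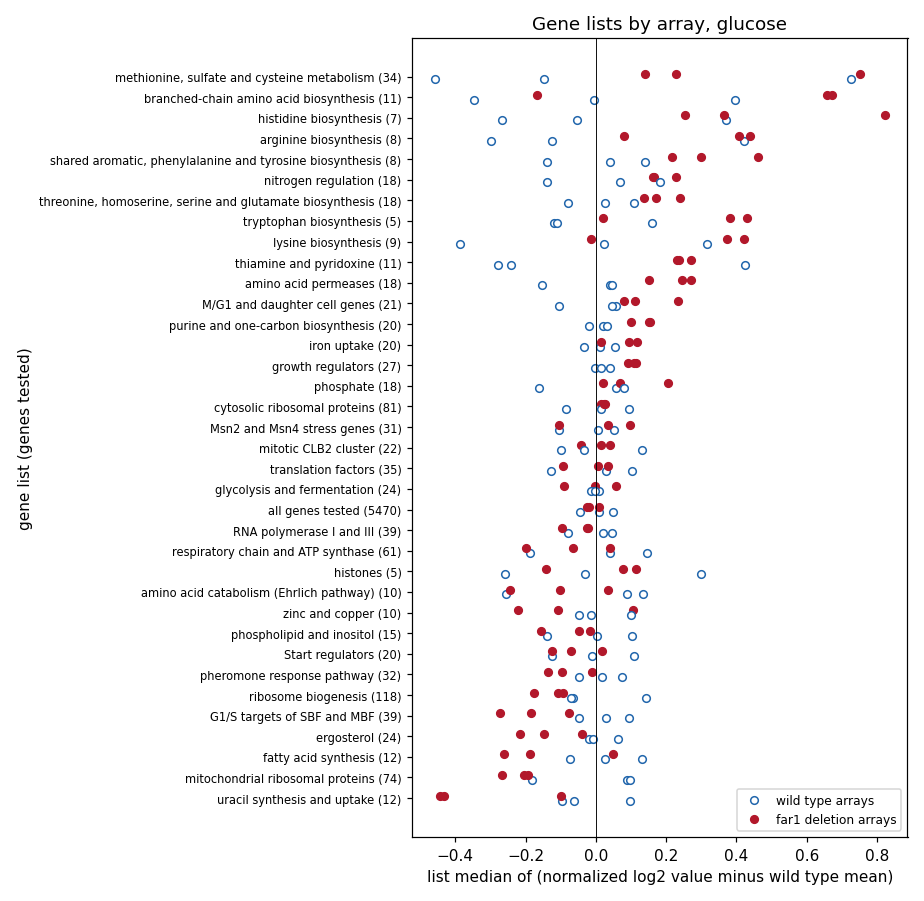
Median over each gene list of the normalized log2 value minus the wild type mean, 1 point per array (open circles, wild type in glucose; filled circles, far1 deletion in glucose), with the number of genes tested in brackets. The methionine list runs from -0.46 to 0.75 with both strains mixed, and the Start list has a median change of -0.11 with both strains near 0.

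Of the 52 lists, 17 held at least 1 called gene and 35 held 0, and their medians ran from -0.35 to 0.41. With 1.54% of all genes tested called, nothing is read from these counts. The medians of the 16 nuclear chromosomes lay between -0.09 and 0.08. The 11 genes encoded in the mitochondrial DNA, which were chosen after their values were seen, had a median of -0.87. All 11 changes were negative after normalization and 7 of 11 on the deposited scale, where the median was -0.46, and 0 of the 11 were called by limma (lowest adjusted p 0.158). VAR1, the mitochondrially encoded ribosomal protein, was 4.4, 0.7 and 2.6 in wild type and 0.1 in each deletion array, at the floor. OLI1, the ATP synthase subunit, was 936.1, 1109.0 and 1080.2 against 1062.4, 1291.1 and 1113.8 (-0.23 ± 0.13), and COX1, the cytochrome oxidase subunit, 460.7, 401.7 and 260.4 against 401.3, 492.7 and 314.7 (-0.40 ± 0.24), with overlap in both.

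The same 84 genes were then read in ethanol, in other cultures that share no control arrays with the glucose comparison. The BioDn spike-in ratio was 0.2 to 0.231 in the wild type ethanol arrays and 0.555 to 0.571 in the deletion ethanol arrays. It was thus split by strain in ethanol and cannot be told apart from the deletion there. Deletion arrays 2 and 3 in glucose were on the high side too. Array 3 of the deletion and array 3 of the overexpression strain in ethanol carry a FAR1 signal that goes against their labels. Counts of genes are therefore given with and without this pair, and ethanol changes without it unless stated. As labelled, 4 genes were called in ethanol (0.0721%), and without the pair 6 (0.108%). Of the 84 genes, 68 had the same sign in ethanol, 81% against 55.6% over all genes tested, where the sign is that of the glucose change, and 62 without the pair, 73.8% against 54.9%. Without the pair, HIS3, TRP1, FAR1 and FUR1 were the 4 of the 84 called with the same sign, and as labelled 2 were. The pair was left out for its FAR1 signal, so the call of FAR1 follows from that choice and is no finding. As labelled, the change of FAR1 in ethanol was 1.01 (adjusted p 0.982). The median ethanol change without the pair was 0.17 for the 68 rises, whose glucose median was 1.04, and -0.15 for the 16 falls, whose glucose median was -0.96. The genes were chosen by their glucose change, which favours smaller changes in other cultures. No weaker effect of the deletion in ethanol is therefore read from these medians.

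The marker genes differed between the strains in ethanol as well. HIS3 was 7.7, 6.4 and 7.5 in wild type ethanol and 150.0, 214.1 and 135.5 in deletion ethanol, a change of 4.67 ± 0.23 without the pair (adjusted p 1.27e-08). TRP1 was 29.6, 31.9 and 24.3 against 291.2, 663.1 and 643.2 (4.01 ± 0.30, adjusted p 2.41e-06). Deletion array 3 had both markers high, like the other two. FUR1 was 66.0, 72.3 and 95.9 against 231.0, 295.2 and 76.0, so deletion array 3 lay with the wild type, and its change was 1.82 ± 0.16 without the pair (adjusted p 1.04e-05) and 1.11 with it (adjusted p 0.665). URA3 had a change of -2.55 in ethanol without the pair (adjusted p 6.26e-05). With all 18 arrays as labelled, the 4 genes called in ethanol were all higher, so this fall was not called there.

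Other genes called in glucose showed smaller ethanol changes, which their choice by the glucose change favours. DED1 was 49.7, 53.3 and 70.6 in wild type ethanol and 55.0, 70.0 and 95.4 in deletion ethanol, a change of 0.00 ± 0.66 without the pair. HCM1 was 31.2, 42.7 and 53.1 against 38.0, 57.4 and 46.9 (0.06 ± 0.50). The groups overlapped for both. ARO10 was 883.3, 908.6 and 1090.9 against 555.7, 773.1 and 887.1 (-0.72 ± 0.65), and MET13 116.9, 148.6 and 174.3 against 173.0, 242.6 and 209.7 (0.40 ± 0.22). ATG41 was 31.7, 24.0 and 34.8 against 71.2, 96.8 and 55.1, with no overlap, and its change of 1.37 ± 0.39 did not pass (adjusted p 0.384). The difference of the deletion effect between ethanol and glucose was itself tested, and limma called 0 genes (0%) with all 18 arrays and 0 without the pair, with 460 and 431 genes at an unadjusted p under 0.05. For DED1 that difference was -1.53 ± 0.89 (adjusted p 0.71) and for MET13 -1.05 ± 0.30 (adjusted p 0.443), both without the pair. These fits share 1 estimate of the spread over all groups, the overexpression arrays in glucose included. In those arrays DED1 was 7.2, 121.1 and 7.1 and HCM1 4.6, 45.7 and 6, and this spread enters their SEs. The SE of DED1 was 0.14 in the glucose fit and 0.66 for ethanol here, so the test cannot decide for DED1 or HCM1. No gene was thus shown to respond differently to the deletion in ethanol than in glucose.

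**Figure D5:**
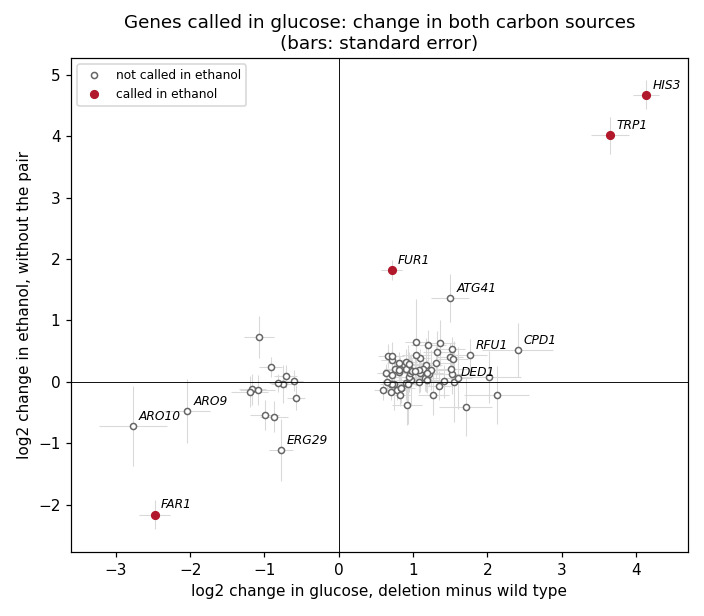
Log2 change in ethanol without the pair against the log2 change in glucose for the 84 genes called in glucose, deletion minus wild type, with SE bars on both axes (filled circles, called in ethanol too). HIS3, TRP1, FAR1 and FUR1 are the called ones, and most of the other genes lie near 0 in ethanol. The pair was left out for its FAR1 signal, so the place of FAR1 follows from that choice.

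The overexpression strain in glucose is compared with the same 3 wild type arrays, so its values are only set beside those of the deletion strain. HIS3 was 211.6, 291.2 and 127.4 in the overexpression arrays (3.78 against the wild type, where the deletion gave 4.14), and TRP1 197.4, 255.5 and 279.5 (3.86 and 3.65). RFU1 was 49.4, 51.4 and 67.8 (2.05 and 1.76) and TIF6 260.3, 278.3 and 226.1 (1.43 and 1.08). The signs differed for CYB2, at 16.3, 16.1 and 28 (0.28 and -1.16), and COA2, at 15.4, 20.5 and 18.2 (0.36 and -0.92). Neither was called in the overexpression strain by limma (adjusted p 0.513 and 0.171). Signs differed for other called genes too, DED1, ERG12 and YNL190W among them. RFU1, TIF6, CYB2 and COA2 are examples that no rule chose for this comparison. DED1 was 7.2, 121.1 and 7.1, where overexpression arrays 1 and 3 are those with little 5 prime actin signal.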

How the data were processed

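RNA was hybridised to Affymetrix yeast S98 arrays after One-Cycle biotin labelling, per the labels' protocols. The deposited values are signal intensities on a linear scale for 9335 probe sets, made with GCOS, per the submitters' processing notes. Its version, algorithm and scaling and the genome build were not given in the sources used here. Arrays hold no counts, so their number limits the precision. Names came from a probe table: 6504 probe sets matched 1 gene, 328 several and 2443 none, with 60 controls left out. For genes with several probe sets the one with the highest mean over 18 arrays was used, giving 5656 genes.

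From the deposited intensities, log2(intensity + 0.4) was quantile normalized over 9 arrays (wild type glucose, deletion glucose, wild type ethanol), and 5470 genes above the 20th percentile in at least 3 arrays were fitted with limma 3.58.1 in R 4.3.3 (lmFit, eBayes with an intensity trend; 6 residual and 6.12 prior degrees of freedom). The other groups hold arrays whose FAR1 signal goes against their label or that lack 5 prime actin signal. Ethanol changes and their difference from glucose came from all 18 arrays, and without the pair from 16. The methods were tested on simulated data. Replicates are independent cultures per the labels. Genes were named by rule: FAR1, HIS3, TRP1 and their neighbours, the markers, all members of the histidine, tryptophan, Start and mating type lists, the 25 largest rises and 15 largest falls, and from every other list up to 4 called members or the 2 with the smallest p. Members, lists and the rule were chosen with earlier results of these data known. Alternatives changed the arrays fitted, scaling, pseudocount, filter, trend, probe set rule and blocks, and left out each array in turn.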

Additional observations from a re-analysis of the deposited data

Results flagged for a closer look

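The gene tests left out the probe sets that match several genes or none in the probe table, and some of these were called in glucose too. Among probe sets matched to several genes, 4 of 301 tested were called (1.33%), 4 higher and 0 lower. Among probe sets with no gene in the table, 7 of 1446 were called (0.484%), 4 higher and 3 lower. Of the single-gene probe sets fitted in the same way, 76 of 6143 were called (1.24%).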

How the results depend on the processing

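The count of 84 calls, 68 higher and 16 lower, became 425, 419 and 6 on the deposited scale, 43, 37 and 6 with only the 6 arrays of both groups, 44, 35 and 9 with no intensity trend, and 50, 27 and 23 with the spike-in ratio as a blocking factor. Leaving out 1 array at a time gave 30 to 178 calls, 24 to 126 of them higher and 6 to 52 lower. The deposited scale keeps the brighter level of the deletion arrays, the smaller fit has fewer samples, and for the others the cause was not tested. FAR1 fell by 2.60 with an adjusted p of 0.642 with all 18 arrays, and was called in every other alternative, as were HIS3 and TRP1 in all 17. Over leave-one-out fits the change of FAR1 ran from -2.62 to -2.35, of HIS3 from 4.01 to 4.31 and of TRP1 from 3.36 to 3.85. Of the 84 genes, 4 instead of 2 were called with the same sign in ethanol without the pair. FAR1 was 1 of the 4, and its call follows from leaving out the pair for its FAR1 signal. No named gene that was called turned its sign in any alternative of the glucose fit. In the leave-one-out and spike-in fits the lack of overlap between the normalized groups makes this nearly certain in advance.

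The replicate numbers did not pair the arrays, since same-numbered arrays correlated at -0.08, -0.07 and 0.04 in their deviations. A fit with the replicate block gave 77 calls, 61 higher and 16 lower, with 66 of the 84 among them, and 0 for the difference between carbon sources, with 439 at an unadjusted p under 0.05 in limma. Genes near the background of the arrays have changes that depend on the pseudocount.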
